A study of Ovis aries with 42 samples.

Results

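Membrane serine proteases and their Kunitz-type inhibitors were followed in liver and gallbladder RNA of sheep with the genotype CF, named CFTR-/- in the series title, and of wild-type (WT) sheep. The set held 8 genes taken by name. The proteases were TMPRSS2, TMPRSS3, TMPRSS4, HPN (hepsin), ST14 (matriptase) and PRSS8 (prostasin), and the inhibitors were SPINT1 and SPINT2. The set was chosen by the TMPRSS2 level in the 20 fetal liver libraries, which had been seen higher in CF than in WT, and filled up with its relatives. For every member the fetal liver comparison of genotypes is therefore described and not tested. All 8 were among the 22981 genes of the liver table and the 29285 genes of the gallbladder table. In each tissue 7 of them passed the filter on low counts and were tested, among 16508 genes in liver and 18717 in gallbladder, and TMPRSS3 passed in neither.

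These enzymes sit on the surface of epithelial cells and cut nearby proteins. As known from human and mouse, matriptase is the central member, which activates prostasin, the growth factor precursor of HGF and the receptor F2RL1, and SPINT1 and SPINT2 are membrane-bound inhibitors that hold it in check. Prostasin and matriptase are also known as channel-activating proteases, because cleavage opens the epithelial sodium channel, and hepsin is an abundant enzyme of hepatocytes. In bile ducts and gallbladder the family belongs to the epithelial lining, where the chloride channel CFTR, the gene disrupted in CF, is also expressed.

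Bulk RNA was sequenced from frozen tissue, with 2 libraries per group. The liver groups were CF fetuses of 5 gestation days, 50, 65, 80, 100 and 120 (written d50 and so on), CF animals at birth, WT fetuses of the same days and WT animals at term. The gallbladder groups were CF at d80, d100 and d120, and WT at d100, d120 and birth. Neither the kind of CFTR mutation nor the age of the newborn animals is stated in the labels. The donor number of WT term liver replicate 2 also stands on WT birth gallbladder replicate 2, so both words were used for that WT donor. Whether CF birth and WT term are the same time is not stated, and term and birth are both called newborn here.

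Library totals ran from 29705597 to 56808639 estimated counts in liver and from 32374693 to 54443213 in gallbladder. Levels are CPM, counts scaled to library size within each tissue. CFTR transcript ranged from 0.687 to 17.3 CPM in CF fetal livers against 0.902 to 2.81 CPM in WT fetal livers, and was at 38.4 and 42.2 CPM in CF birth against 1.81 and 0.846 CPM in WT term livers. In gallbladder CFTR ranged from 18.0 to 117 CPM in CF against 7.13 to 33.1 CPM in WT. It was not lower in CF, and since the kind of mutation is not stated, the transcript is no check of the genotype labels. Donor numbers of the 2 libraries share a stem in 6 of the 12 liver groups (CF d65 and d80, WT d50, d80, d100 and d120) and in WT d100 gallbladder, so p-values measure the spread between libraries, which may not be separate animals. The donor number of CF d100 liver replicate 2 also stands on WT d65 liver replicate 2. The 2 CF d100 gallbladder columns carry variants of 1 library name, so which of the 2 labelled samples each holds is not known, and they may be 2 runs of 1 sample. Where n = 4 CF gallbladder libraries are given below, they may therefore hold 3 samples; with these columns summed as 1 unit, hepsin stayed the single member called between gallbladder genotypes (log2 -1.90, adjusted p = 0.0464). Library names of the WT term livers lie outside the run of the other liver libraries, so a library batch and genotype cannot be told apart in newborn liver.

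The tissue labels were compared with marker genes, of which all 8 for hepatocytes and all 9 for biliary epithelium were present and above 0 in every library. In gallbladder the summed hepatocyte markers stood at 1561 to 6999 CPM in CF libraries, except for 64070 CPM in CF d120 replicate 2. In WT gallbladder they stood at 225600 and 224100 CPM at d100, 149800 and 87740 CPM at d120, and 48590 and 18850 CPM at birth. The WT d100 gallbladder libraries were thus at the level of WT d100 liver, 221900 and 236300 CPM. Calls of members that rest on them are also given without them. The gallbladder calls of other genes below include these libraries and were not repeated without them. In newborn liver the hepatocyte sum was 122900 and 28380 CPM in CF, against 151900 and 155400 CPM in WT. In bulk tissue, fewer cells of a type and less RNA per cell cannot be told apart.

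TMPRSS2 in fetal liver, the measurement that led to this set, was higher in CF than in WT at each of the 5 stages. Its levels at d50 were 2.81 and 2.77 CPM in CF against 0.469 and 2.67 CPM in WT. At d65 they were 4.67 and 3.27 CPM in CF against 0.525 and 0.712 CPM in WT, and at d80 3.21 and 4.70 CPM in CF against 0.297 and 0.262 CPM in WT. At d100 the levels were 4.53 and 3.81 CPM in CF against 2.19 and 1.84 CPM in WT, and at d120 they were 6.99 and 5.46 CPM in CF against 1.04 and 1.03 CPM in WT. The genotypes did not overlap at any stage, although WT d50 replicate 2 came close to the CF d50 pair. Over all fetal libraries the CF range was 2.77 to 6.99 CPM with a median of 4.17, and the WT range was 0.262 to 2.67 CPM with a median of 0.872 (n = 10 each).

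The size of that difference was uneven across gestation. The log2 difference was 2.19 ± 0.24 (SE) over all stages, or 4.57-fold. By stage it was smallest for d50 (0.84 ± 0.51) and d100 (1.05 ± 0.51), and was 2.68 ± 0.55 for d65, 3.81 ± 0.59 for d80 and 2.58 ± 0.54 for d120. The 3 highest WT fetal values, 2.67, 2.19 and 1.84 CPM, came from d50 and d100. As background, the same comparison called 0.854% of all tested genes higher in CF and 1.69% lower. The summed level of the 9 biliary markers was also higher in CF, at 218 and 192 CPM against 159 and 187 CPM in WT for d50, 254 and 279 CPM against 182 and 144 CPM in WT for d80, 226 and 213 CPM against 166 and 182 CPM in WT for d100, and 282 and 228 CPM against 150 and 175 CPM in WT for d120. Only for d65 did the genotypes overlap, at 240 and 199.8 CPM in CF against 150.4 and 211 CPM in WT. Taken marker by marker, the median log2 difference of the 9 was 0.001 for d50, 0.454 for d65, 0.997 for d80, 0.464 for d100 and 1.112 for d120. Over all stages 1 of the 9 was called higher and 0 lower. The part of these markers in the TMPRSS2 values was not tested.

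**Figure D1:**
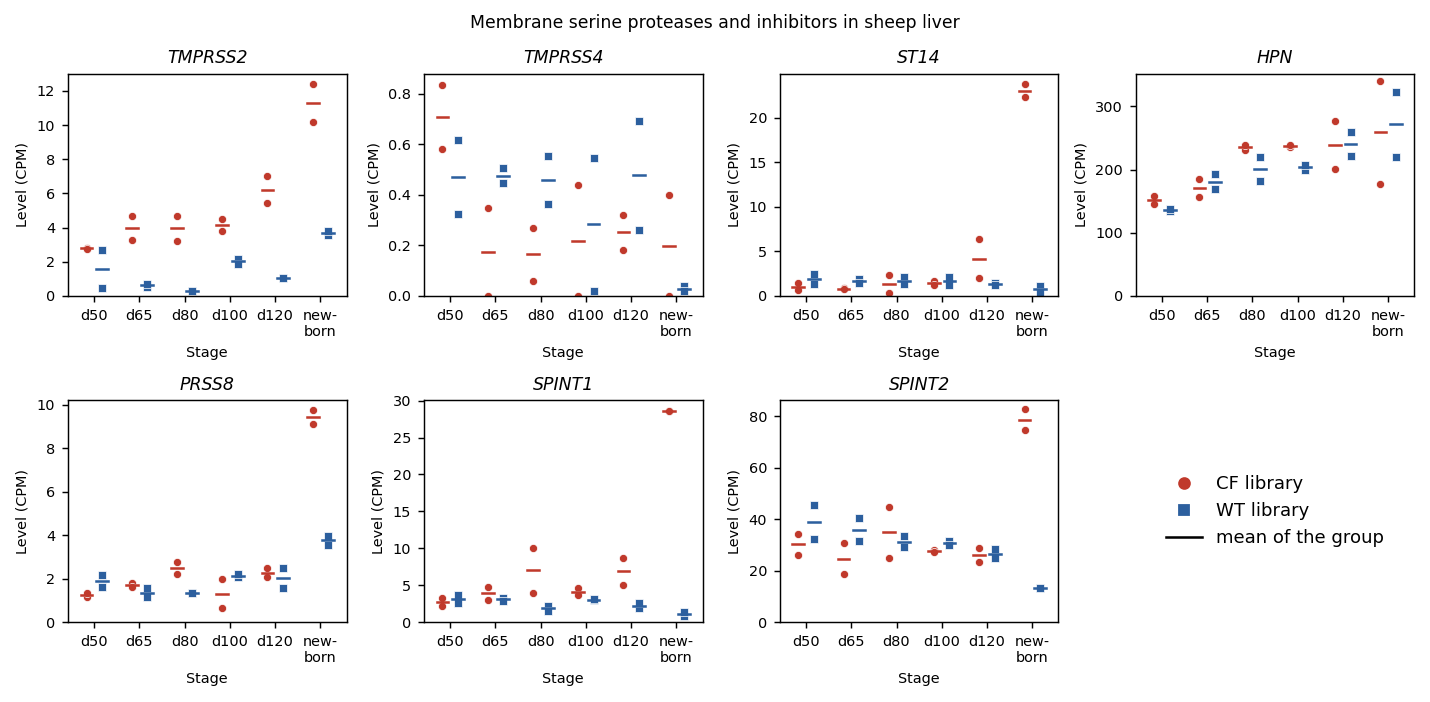
Levels of the 7 tested members in liver (y axis, CPM) by stage (x axis), with CF libraries as red circles and WT libraries as blue squares; short bars are the means of 2 libraries. TMPRSS2 lies higher in CF at every stage, whereas ST14, SPINT1 and SPINT2 stand furthest apart in the newborn pair, with CF ST14 at 23.8 and 22.3 CPM against 1.14 and 0.403 CPM in WT.

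No other member separated the fetal genotypes over all libraries of these stages. SPINT1, the matriptase inhibitor, ran from 2.22 to 10.1 CPM with a median of 4.30 in CF, against 1.55 to 3.64 CPM with a median of 2.76 in WT, a log2 difference of 0.81 ± 0.19. Its genotypes overlapped at d50 and d65 and did not overlap at d80, d100 and d120. Other members also separated at single stages. Without overlap, hepsin was higher in CF at d50, d80 and d100, and PRSS8 was lower at d50 and d100 and higher at d65 and d80. ST14 was lower at d65 and higher at d120, SPINT2 lower at d65 and d100, and TMPRSS4 lower at d65 and d80. PRSS8 and ST14 thus went in both directions. The share of all genes without overlap at a single stage was not counted. These separations of 2 against 2 libraries are therefore not read as differences of the members. ST14 averaged 1.76 ± 1.74 CPM in CF livers, with 1.67 ± 0.431 CPM in WT livers (SD, n = 10 each), and 1 library, CF d120 replicate 1 at 6.37 CPM, stood far above the other CF fetal libraries. PRSS8 averaged 1.81 ± 0.645 CPM in CF livers, with 1.77 ± 0.452 CPM in WT livers (SD, n = 10 each). SPINT2 averaged 28.8 ± 6.98 CPM in CF livers, with 32.7 ± 6.10 CPM in WT livers, and hepsin 207 ± 44.3 CPM in CF livers, with 193 ± 38.7 CPM in WT livers (SD, n = 10 each). TMPRSS4 was barely detected, at 0 to 0.836 CPM in CF fetal livers, with 0.0188 to 0.694 CPM in WT fetal livers. TMPRSS3, known from its role in hearing in people, was at 0 in all but 3 of the 24 liver libraries and reached 0.104 CPM at most, in CF d50 replicate 2.

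Ordered by their means, the TMPRSS2 levels of the 12 liver groups began with CF birth at 11.3 ± 1.57 CPM and CF d120 at 6.23 ± 1.08 CPM (SD, n = 2 each), which did not overlap. CF d100, CF d65, CF d80 and WT term followed at 4.17, 3.97, 3.96 and 3.68 CPM, and these 4 groups overlapped one another. CF d50 came next at 2.79 ± 0.0323 CPM, above WT d100 at 2.02 ± 0.245 CPM without overlap. WT d50, with a mean of 1.57 and an SD of 1.55 CPM, overlapped the WT groups at d65, d100 and d120, and WT d80 stood last at 0.279 ± 0.0243 CPM. The newborn WT livers therefore held TMPRSS2 at about the level of the CF livers of d65 to d100.

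Newborn liver gave the widest separation of the family, in libraries outside the comparison by which it was chosen. Of the 7 members tested, 5 were higher in CF birth than in WT term and 0 were lower: ST14, SPINT1, SPINT2, TMPRSS2 and PRSS8. Across all genes 17% were called higher and 16.8% lower, and the median log2 difference was 2.56 over the members and 0.04 over all genes. The newborn genotypes differed widely, and this background is part of the count.

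Matriptase and its inhibitors stood furthest apart. ST14 was at 23.8 and 22.3 CPM in CF birth livers, against 1.14 and 0.403 CPM in WT term livers (log2 4.89 ± 0.81, adjusted p = 1.91e-04, edgeR). SPINT1 was at 28.6 CPM in both CF libraries, against 0.894 and 1.39 CPM in WT (log2 4.64 ± 0.48, adjusted p = 2.64e-06). SPINT2, the inhibitor of broader range, was at 74.5 and 82.6 CPM in CF, against 13.3 CPM in both WT libraries (log2 2.56 ± 0.29, adjusted p = 5.51e-06). All 3 calls held without each of the 4 libraries in turn. In these scaled levels the CF birth replicates lay close together for all 3 genes. The library scaling factors were 1.475 and 2.04 in CF birth, against 0.9882 and 0.9199 in WT term. The hepatocyte sums of the CF birth replicates were 122900 and 28380 CPM, and their part in these levels was not tested.

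The other 2 calls were smaller. TMPRSS2 was at 12.4 and 10.2 CPM in CF birth, against 3.54 and 3.83 CPM in WT term (log2 1.61 ± 0.51, adjusted p = 0.0203). PRSS8, the protease that matriptase activates, was at 9.11 and 9.74 CPM in CF birth, against 3.98 and 3.55 CPM in WT term (log2 1.33 ± 0.43, adjusted p = 0.0248). Both sets of libraries were apart without overlap. The TMPRSS2 call was lost without WT term replicate 1 (adjusted p = 0.115), WT term replicate 2 (0.0866) or CF birth replicate 1 (0.0716), and that of PRSS8 without any 1 of the 4 libraries (0.0536 to 0.135), with log2 values of 1.23 to 1.67 in these 7 cases.

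Hepsin did not pass the test in newborn liver, at 341 and 178 CPM in CF against 220 and 323 CPM in WT (log2 -0.07 ± 0.27, adjusted p = 0.882). The lower CF value was in the library with the lower hepatocyte sum, birth replicate 2. The highest newborn value, in CF birth replicate 1, came at a sum of 122900 CPM, below the 151900 and 155400 CPM of WT term. TMPRSS4 was at 0.398 and 0 CPM in CF, against 0.0380 and 0.0201 CPM in WT, too low for a comparison. Beside these calls, the biliary markers summed to 648 and 450 CPM in CF birth against 294 and 335 CPM in WT term. KRT7 was at 125 and 100 CPM in CF birth against 3.01 and 2.42 CPM in WT term, and 6 of 9 biliary markers were called higher and 1 lower. Of the other marker lists, 5 of 5 erythroid and 3 of 5 smooth muscle markers were called higher in CF, and 5 of 8 hepatocyte and 3 of 6 macrophage markers lower. The erythroid sums were low, at 19.2 and 2.26 CPM in CF birth against 1.58 and 0.604 CPM in WT term. In fetal liver they were at least 1709 CPM. The smooth muscle sums were 139 and 566 CPM in CF birth against 170 and 163 CPM in WT term, so CF birth replicate 1 lay below both WT libraries. The part of these markers in the newborn results was not tested.

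**Figure D2:**
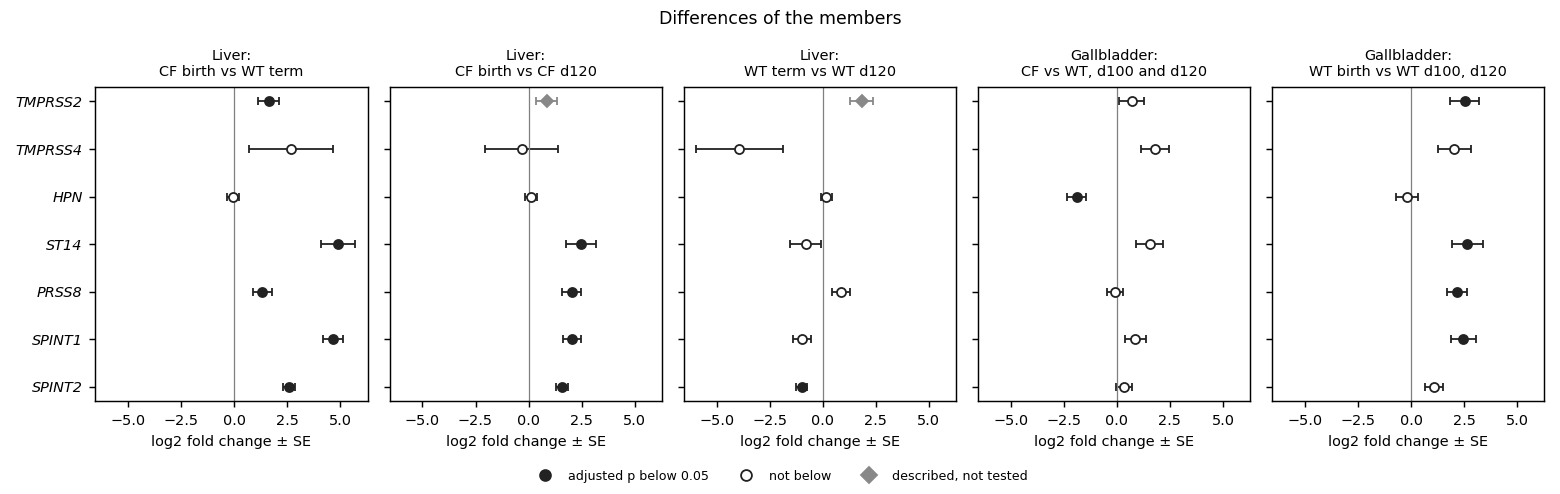
Log2 fold change ± SE (x axis) of each tested member (rows) in 5 comparisons, with filled points where the adjusted p was below 0.05, open points where it was not, and grey diamonds for TMPRSS2 against its d120 level, which is described and not tested. Newborn liver has 5 filled points to the right of 0, CF birth against d120 has 4, and the gallbladder genotype comparison has only hepsin filled, at -1.91.

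Age within the fetal livers was tested as a straight line over d50 to d120. The fetal levels of TMPRSS2 are those by which the set was chosen, so its slopes are described and not tested. Leaving TMPRSS2 aside, 0 of the tested members passed in WT liver, with 4.8% of all genes called. The TMPRSS2 slope in WT was 0.36 ± 0.47 on the log2 scale over the whole span. It turned on WT d50 replicate 2, without which it was 1.66. In CF liver ST14 was the single member that rose, by 2.00 ± 0.63 (adjusted p = 0.0389), against 8.58% of all genes rising and 7.96% falling. SPINT1 missed at 1.05 ± 0.37 (adjusted p = 0.0582) and hepsin at 0.69 ± 0.24 (0.0547). The TMPRSS2 slope in CF was 0.96 ± 0.45.

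The ST14 slope leaned on CF d120 replicate 1, the 6.37 CPM library, without which it was 1.12 (adjusted p = 0.384). It was also lost without CF d50 replicate 1 (1.66, 0.248), CF d65 replicate 1 (2.05, 0.0572), CF d65 replicate 2 (1.96, 0.0721), CF d100 replicate 1 (1.91, 0.0752) or CF d100 replicate 2 (2.08, 0.0537), each given as the log2 slope and adjusted p. SPINT1 passed without CF d65 replicate 1 (1.20, 0.0459), CF d80 replicate 1 (1.01, 0.0399) or CF d80 replicate 2 (1.104, 0.0272). Leaving aside TMPRSS2, which is described only, edgeR called the difference between the CF and WT slopes for 0 members. Of all tested genes 1 was called (0.00606%), with 2174 genes at an unadjusted p under 0.05. DESeq2 called 0 of these members. The slope difference was 2.40 ± 0.89 for ST14 and 1.39 ± 0.52 for SPINT1 (adjusted p = 0.333 for both).

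From d120 to the newborn stage the step was larger in CF than in WT for 3 members, ST14, SPINT1 and SPINT2, by a test of the difference itself that is given in the closing section; 10.8% of all genes had a higher and 10.3% a lower CF step. In CF liver 4 of 7 members rose and 0 fell (6.34% and 8.39% of all genes): SPINT2 by log2 1.59 ± 0.28 (adjusted p = 6.82e-04), SPINT1 by 2.05 ± 0.42 (0.00269), PRSS8 by 2.04 ± 0.44 (0.00414) and ST14 by 2.46 ± 0.71 (0.0263). The d120 levels of TMPRSS2 are among those by which the set was chosen, so its step is described only: it was log2 0.86 ± 0.50 in CF. The SPINT2 call held without each of the 4 libraries, whereas without CF d120 replicate 2 ST14 (adjusted p = 0.24), PRSS8 (0.0635) and SPINT1 (0.0599) missed, and ST14 also missed without CF birth replicate 1 (0.0519) or 2 (0.0839).

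In WT liver TMPRSS2 was at 3.54 and 3.83 CPM at term against 1.04 and 1.03 CPM at d120, a log2 difference of 1.83 ± 0.53 that is given without a test for the same reason. Of the other 6 members 0 rose (16.9% of all genes). SPINT2 was the single member that fell (18.5% of all genes), to 13.3 CPM in both term libraries against 24.8 and 28.3 CPM at d120 (log2 -0.998 ± 0.27, adjusted p = 0.00851). SPINT1 was at 0.894 and 1.39 CPM at term and 1.91 and 2.58 CPM at d120 (log2 -0.98 ± 0.43, adjusted p = 0.0863). The SPINT2 call missed without WT d120 replicate 2 (0.0607) or WT term replicate 1 (0.0531). The WT term and WT d120 livers also differ in the library names mentioned above.

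Gallbladder levels were normalised apart from liver and are set beside it only as a description. TMPRSS2 was at 17.2 and 120 CPM in CF d80, 81.5 and 81.8 CPM in CF d100 and 72.0 and 15.8 CPM in CF d120. In WT gallbladder it was at 24.7 and 25.2 CPM at d100, 41.4 and 69.4 CPM at d120, and 181 and 245 CPM at birth. Every gallbladder library held more TMPRSS2 than any liver library. The lowest was CF d120 replicate 2, the CF library with the high hepatocyte sum, followed by CF d80 replicate 1, with a sum of 6999 CPM. The WT d100 pair, with the highest sums, held more than either. The part of hepatocyte RNA in these levels was not tested. ST14 was at 58.2 and 227 CPM in CF d80, 126 and 122 CPM in CF d100 and 118 and 30.3 CPM in CF d120, and in WT at 38.2 and 42.6 CPM at d100, 8.50 and 45.0 CPM at d120, and 180 and 234 CPM at birth. TMPRSS4, near 0 in liver, reached 112 and 107 CPM in CF d100 gallbladder and 21.4 and 113 CPM in WT at birth. TMPRSS3 stayed at or below 0.0778 CPM in gallbladder.

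**Figure D3:**
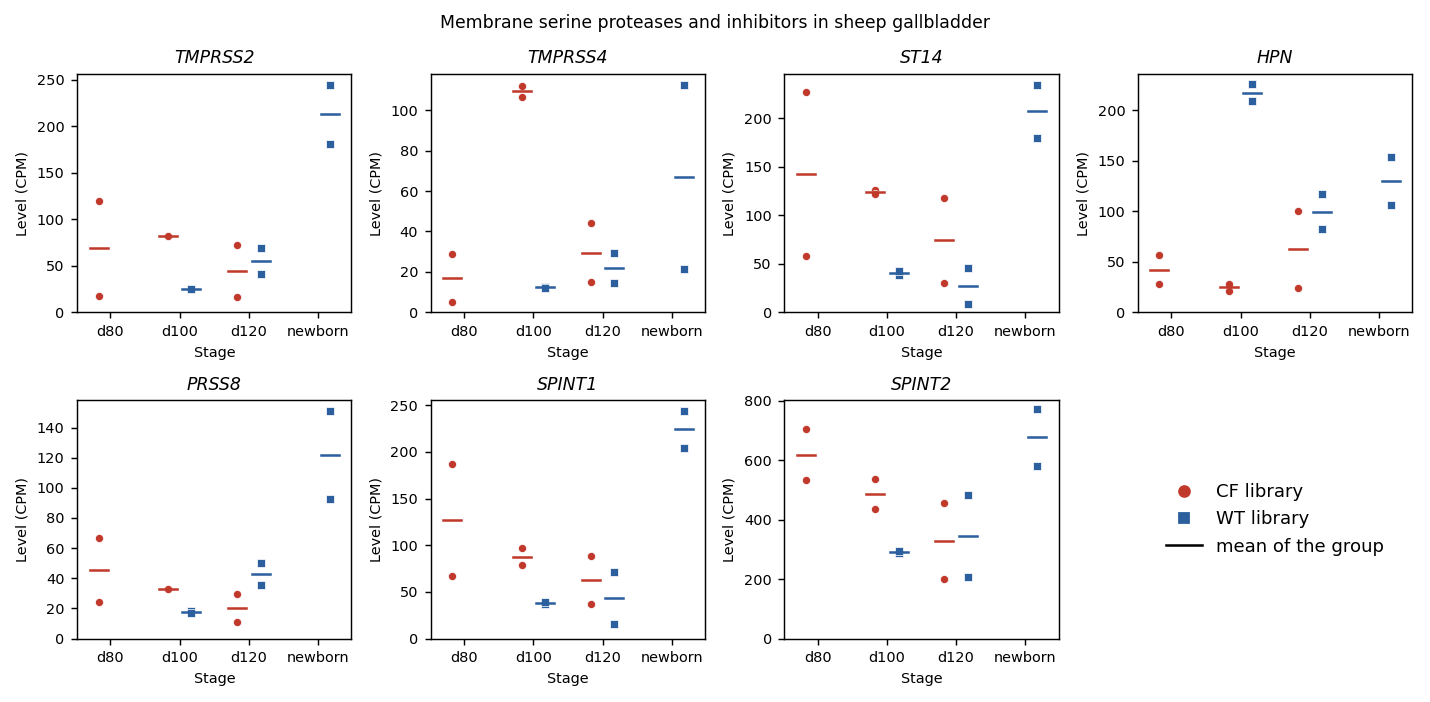
Levels of the 7 tested members in gallbladder (y axis, CPM) by stage (x axis), with CF libraries as red circles and WT libraries as blue squares; short bars are the means of 2 libraries. CF was sampled at d80, d100 and d120 and WT at d100, d120 and birth; the pairs of CF d80 and CF d120 spread widely, and hepsin in WT d100 stands at 226 and 209 CPM.

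Between genotypes, over d100 and d120, 1 of 7 members differed in gallbladder, against 23.6% of all genes higher and 20.1% lower in CF. Hepsin was at 28.2 and 21.0 CPM in CF d100 and 24.3 and 101 CPM in CF d120, against 226 and 209 CPM in WT d100 and 82.1 and 117 CPM in WT d120 (log2 -1.91 ± 0.43, adjusted p = 0.0116). The highest CF library, d120 replicate 2, was the CF library with the highest hepatocyte sum, and the 2 WT d100 libraries had both the highest hepsin and the highest sums of all. WT birth replicate 1 held 154 CPM of hepsin at a sum of 48590 CPM, and WT d120 replicate 1 held 82.1 CPM at 149800 CPM. The part of hepatocyte RNA in the hepsin call was not tested. With the WT d100 libraries left out and d120 compared alone, hepsin did not pass (log2 -0.67, adjusted p = 0.456). It also missed without CF d100 replicate 2 (log2 -1.80, adjusted p = 0.0585).

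The other 6 members did not pass. TMPRSS4 was at 112, 107, 44.1 and 14.7 CPM in the CF libraries of d100 and d120, against 12.6, 11.9, 29.2 and 14.4 CPM in WT (log2 1.80 ± 0.67, adjusted p = 0.0551). ST14 averaged 98.8 ± 45.8 CPM in CF gallbladders, with 33.6 ± 16.97 CPM in WT gallbladders (SD, n = 4 each; log2 1.54 ± 0.62, adjusted p = 0.0709). Leaving out WT d120 replicate 2 brought ST14 (log2 2.37, adjusted p = 0.0265) and SPINT1 (1.63, 0.0291) past the threshold, and leaving out CF d120 replicate 2 did so for ST14 (1.94, 0.0425). TMPRSS2 averaged 62.7 ± 31.6 CPM in CF gallbladders, with 40.2 ± 21.0 CPM in WT gallbladders (SD, n = 4 each; log2 0.69 ± 0.60, adjusted p = 0.365), and at d120 alone its log2 difference was -0.34 (adjusted p = 0.8). The liver and gallbladder differences were not tested against each other.

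In WT gallbladder 4 of 7 members were higher at birth than over d100 and d120, against 16% of all genes: PRSS8 (log2 2.15 ± 0.46, adjusted p = 0.0184), SPINT1 (2.47 ± 0.59, 0.0235), ST14 (2.65 ± 0.72, 0.0311) and TMPRSS2 (2.52 ± 0.70, 0.0332). TMPRSS4 at 2.04 ± 0.76 (0.0719) and SPINT2 at 1.09 ± 0.43 (0.0805) missed, and the member median was 2.15 against 0.13 over all genes. The hepatocyte sum was lower at birth, as given above. All 4 calls missed without either WT birth library or either WT d100 library (adjusted p 0.0727 to 0.142). Without WT d120 replicate 1 PRSS8 (0.0546), ST14 (0.0669) and TMPRSS2 (0.0911) missed, and without WT d120 replicate 2 TMPRSS2 (0.0505) missed while SPINT2 passed (0.0377). Against d120 alone the log2 differences were 1.94 for TMPRSS2, 2.95 for ST14, 1.504 for PRSS8 and 2.37 for SPINT1, with adjusted p from 0.0762 to 0.156.

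In CF gallbladder 0 of 7 members differed between d100 with d120 and d80 by edgeR. There 1 gene of all tested was called (0.00534%). An unadjusted p under 0.05 was reached by 3137 genes, and 0 members were called with DESeq2. The CF d80 pair differed widely, with ST14 at 58.2 and 227 CPM. Without CF d80 replicate 2, TMPRSS4 was called (log2 3.58, adjusted p = 0.0357).

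Matriptase and SPINT1 levels were set against each other library by library. The ratio of SPINT1 to ST14 CPM, readable only as a change between libraries, ran from 0.649 to 1.22 over the CF gallbladders and from 0.919 to 1.79 over the WT gallbladders. Over the fetal livers it ran from 1.37 to 12.7 in CF and from 1.08 to 2.39 in WT; the 12.7 is CF d80 replicate 1, with 14.4 estimated counts of ST14, and the next highest CF value was 5.75. In newborn liver it was 1.21 and 1.28 in CF, against 0.784 and 3.45 in WT, where few counts stood behind ST14. The ratio of SPINT2 to SPINT1 was 3.30 and 4.63 in CF d120 liver against 12.98 and 10.97 in WT d120 liver. It was 2.60 and 2.89 in CF birth liver against 14.9 and 9.54 in WT term liver, and stood at 2.84 and 3.17 in WT birth gallbladder. Across the 12 gallbladder libraries the Pearson correlation of log2 CPM was 0.961 between ST14 and SPINT1, 0.924 between SPINT1 and SPINT2 and 0.920 between TMPRSS2 and PRSS8. In liver ST14 and SPINT1 correlated at 0.793 over 24 libraries and at 0.394 over the 20 fetal ones, and TMPRSS2 and SPINT1 at 0.591 and 0.679. These correlations describe libraries that share genotype, stage and cell makeup, and are not tests.

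**Figure D4:**
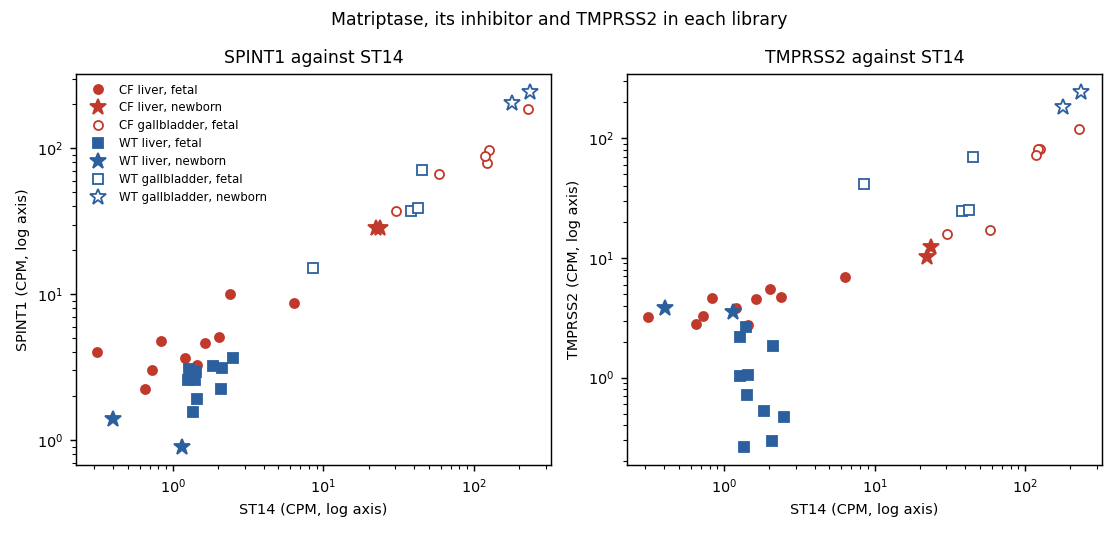
SPINT1 (left) and TMPRSS2 (right) against ST14 in each library, all in CPM on log axes; filled symbols are liver, open symbols gallbladder, red CF, blue WT, and stars newborn. The CF newborn livers and the gallbladders other than WT d120 replicate 1 are high in both SPINT1 and ST14. That library held 15.2 CPM of SPINT1 and 8.50 CPM of ST14, below the CF newborn livers. Fetal CF livers lie above fetal WT livers in TMPRSS2 at similar ST14. The tissues were normalised separately.

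The 5 genes with a symbol that were most like TMPRSS2 in each tissue were found by Pearson correlation of log2 CPM. Over the 24 liver libraries these were PARP3 (0.842), CFAP221 (0.797), CANT1 (0.793), MID2 (0.778) and SIRPB2 (0.769), and among 16507 genes SPINT1 ranked 203 and PRSS8 ranked 296. Over the 12 gallbladder libraries they were SLC6A8, a creatine transporter (0.994), PROM1, an apical membrane protein (0.986), MFSD6 (0.984), SH3YL1 (0.982) and ENPP3 (0.980), with PRSS8 ranked 98 and SPINT1 ranked 666. The 2 lists share no gene. In newborn liver the log2 difference of CF against WT was 1.76 ± 0.40 for PARP3 and 1.97 ± 0.66 for CFAP221, given without a test because these libraries entered the correlation that picked the genes.

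Other genes of the system were read from lists, whose counts stand against all genes: in newborn liver 17% were higher and 16.8% lower in CF, and between gallbladder genotypes 23.6% were higher and 20.1% lower. Among 16 other membrane-anchored serine proteases 5 were tested in liver. In newborn liver 2 were higher in CF and 0 lower, with a list median of log2 0.43: PRSS22 (5.02 ± 1.14, adjusted p = 0.00259) and TMPRSS7 (5.12 ± 1.64, 0.022), the second with means of 0.758 CPM in CF and 0.0190 CPM in WT. TMPRSS6, the hepatocyte protease that restrains hepcidin, averaged 180 ± 88.4 CPM in CF newborn livers, with 161 ± 18.1 CPM in WT newborn livers (SD, n = 2 each; adjusted p = 0.728). In gallbladder TMPRSS6 was the single call of 8 tested, a share under the 20.1% of all genes, lower in CF at 13.2 ± 22.2 CPM, with 179 ± 53.0 CPM in WT (SD, n = 4 each; log2 -4.48 ± 1.02, adjusted p = 0.0117), in the same direction as the hepatocyte sum. In the fetal CF slope, 0 of the 5 were called.

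Among 11 tested inhibitors of other kinds, 4 were higher and 4 lower in CF newborn liver, with a median of log2 0.84 (17% and 16.8% of all genes, with a median of 0.04). SERPINE2 (log2 4.01 ± 0.71, adjusted p = 3.40e-04) and WFDC2 (6.03 ± 1.36, 0.00243) were among those higher, and A2M, a general protease trap of plasma, was among those lower (-1.98 ± 0.44, 0.00204). WFDC2 averaged 2.73 ± 2.11 CPM in CF livers, with 0.0403 ± 0.0570 CPM in WT livers (SD, n = 2 each), so its fold rests on few WT counts. In gallbladder 1 of 10 was higher and 4 lower in CF (23.6% and 20.1% of all genes), with TFPI2, a Kunitz inhibitor of the tissue factor pathway, higher (2.20 ± 0.47, adjusted p = 0.00961). A2M (-3.33 ± 0.50, 0.00389) and AMBP (-4.68 ± 1.46, 0.0309), both made by hepatocytes, were lower there, again with the hepatocyte sum. The part of hepatocyte RNA in these calls and in that of TMPRSS6 was not tested.

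Of 14 tested substrates and receptors, 5 were higher and 1 lower in CF newborn liver (17% and 16.8% of all genes), with a median of log2 0.55. EPCAM, an adhesion protein that matriptase cuts, averaged 19.7 ± 2.15 CPM in CF livers, with 1.30 ± 0.445 CPM in WT livers (SD, n = 2 each; log2 3.92 ± 0.56, adjusted p = 4.98e-05). F2RL1, the receptor that matriptase activates, averaged 4.77 ± 2.04 CPM in CF livers, with 0.243 ± 0.0593 CPM in WT livers (4.28 ± 1.01, 0.00331), and PLAUR, the urokinase receptor, was also higher (1.65 ± 0.54, 0.0249). MET, the receptor of HGF, was the one lower (-1.50 ± 0.46, 0.017). EPCAM is also one of the biliary markers. In the WT gallbladder at birth 4 were higher than over d100 and d120 and 1 was lower (16% and 11.1% of all genes), and F2RL1 (2.46 ± 0.48, 0.015), EPCAM (2.60 ± 0.66, 0.0267), MET (1.44 ± 0.36, 0.0264) and CDCP1 (1.85 ± 0.53, 0.0357) were those higher.

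Of 10 tested regulators of epithelial transcription and splicing, 4 were higher and 0 lower in CF newborn liver (17% and 16.8% of all genes), with a median of log2 2.53. Among them were EHF, an epithelial transcription factor (3.15 ± 0.51, adjusted p = 1.67e-04), ELF3 (1.96 ± 0.37, 5.41e-04) and ESRP1, a splicing factor of epithelia (3.65 ± 1.12, 0.0182). Along the CF fetal slope ESRP2, ELF3, EHF and ESRP1 rose, 4 of 10 (8.58% of all genes). In CF gallbladder over d100 and d120, 3 of 12 were higher than in WT, about the 23.6% of all genes, among them ESRP1 (40.6 ± 21.2 CPM in CF, with 2.95 ± 2.001 CPM in WT; log2 3.87 ± 1.18, adjusted p = 0.0285) and GRHL3, a factor of epithelial barriers, which was near 0 in WT (2.098 ± 1.99 CPM in CF, with 0.0444 ± 0.0570 CPM in WT; SD, n = 4 each).

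**Figure D5:**
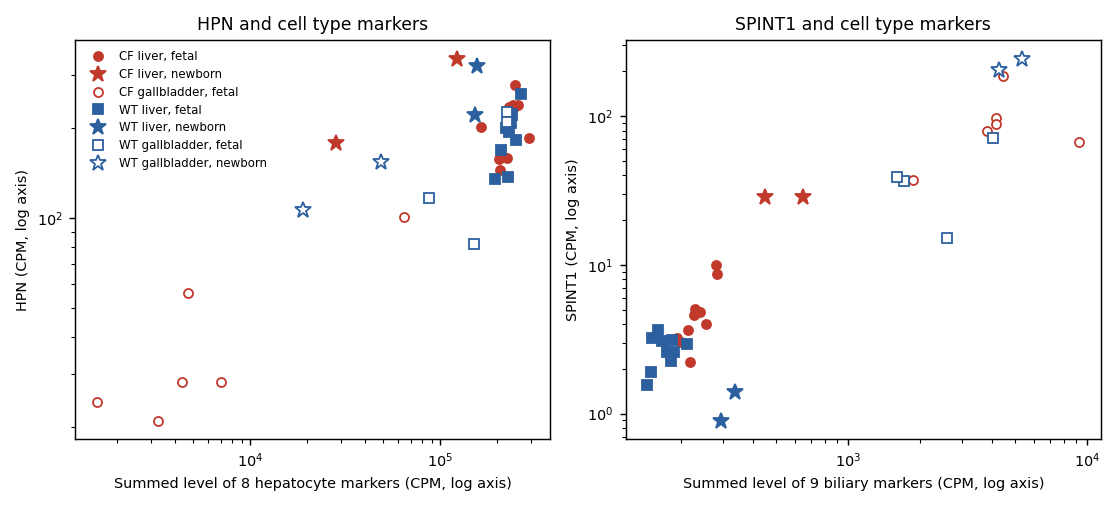
Hepsin against the summed level of 8 hepatocyte markers (left) and SPINT1 against the summed level of 9 biliary markers (right), in CPM on log axes; filled symbols are liver, open symbols gallbladder, red CF, blue WT, and stars newborn. Hepsin is lowest in the CF gallbladders with sums of 1561 to 6999 CPM, and the CF newborn livers lie above the WT newborn livers in SPINT1; the tissues were normalised separately.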

How the data were processed

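The values are estimated counts per gene, 1 column per library, in 1 liver and 1 gallbladder table deposited by the authors. The liver table's name mentions TPM, but its totals differ between libraries as counts do, so it was read as estimated counts; a rescaling by transcript length cannot be told from the values. Without giving their roles, the submitters' processing notes name DESeq2, limma, edgeR, Salmon (versions 1.9.0 and 1.10.1) and STAR (2.7.9a). The genome build and any strand setting were not found in those notes or the labels, and no position or sequence is printed.

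Counts were rounded and each tissue fitted alone in edgeR 4.0.16 (R 4.3.3): TMM scaling, filterByExpr, a quasi-likelihood model with 1 mean per group, two-sided tests and Benjamini-Hochberg adjustment over all tested genes, with a threshold of 0.05. The standard error (SE) is the log2 fold change divided by the root of F. Levels are TMM-scaled CPM. Where 1 library of a pair was left out, the lone library was taken to vary as the remaining groups do. The procedure was tested on simulated counts. Alternatives were DESeq2 1.42.0 size factors and Wald test, no low-count filter, 1 unit per donor stem, fetal libraries alone, gallbladder scaling on genes low in WT liver, and each library left out. All 18 pairs of libraries differed beyond sampling noise.

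The members and lists were chosen with earlier results of these data known. Named genes were the members, the 5 genes most like TMPRSS2 per tissue, and at most 4 genes per list and comparison with the smallest p; some of these are not reported here. The 6 chromatin accessibility libraries were not analysed here.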

Additional observations from a re-analysis of the deposited data

Results flagged for a closer look

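The step from d120 to the newborn liver differed between genotypes for 3 members, by a test of the difference itself that was added after the values were seen. The CF step exceeded the WT step by log2 3.26 ± 1.01 for ST14 (adjusted p = 0.0284), 3.03 ± 0.60 for SPINT1 (0.00187) and 2.59 ± 0.39 for SPINT2 (2.45e-04), against 10.8% of all genes with a higher and 10.3% with a lower CF step. SPINT1 and SPINT2 held without each of the 8 libraries in turn (adjusted p up to 0.0184 and 0.00239). ST14 missed without CF birth replicate 2 (adjusted p = 0.0598), CF d120 replicate 2 (0.111), WT d120 replicate 1 (0.0704), WT d120 replicate 2 (0.0577) or WT term replicate 2 (0.108), and with 1 unit per donor stem (log2 3.24, adjusted p = 0.0524). For TMPRSS2 the difference was -0.97 ± 0.72, given as a description because its d120 levels chose the set. The separate library names of the WT term livers apply here too.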

How the results depend on the processing

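The fetal log2 difference of TMPRSS2 stayed between 2.04 and 2.54 without each of the 20 libraries and between 2.19 and 2.23 under 5 other settings. It is the value by which the set was chosen, so these ranges only describe it. Counts of members past the threshold moved as follows. With the CF fetal slope, they were 2 with DESeq2 size factors, 3 with the DESeq2 Wald test, 2 with fetal libraries alone and 0 with 1 unit per donor stem; with the WT fetal slope, 1 with the Wald test and 1 with fetal libraries alone. Between gallbladder genotypes they were 3 with the Wald test, 2 with no filter on low counts, and 0 at d120 alone, a setting chosen after seeing the data. For WT gallbladder at birth they were 6 with the Wald test, 0 with 1 unit per donor stem and 0 against d120 alone. With each library left out, the counts ran from 3 to 4 in newborn liver, 0 to 1 for the WT slope, 0 to 2 for the CF slope, 1 to 4 for CF birth against d120, 0 to 2 for WT term against d120 (TMPRSS2 counted), 0 to 3 between gallbladder genotypes, 0 to 4 for WT gallbladder at birth and 0 to 1 for CF gallbladder by stage. No called value changed direction. TMPRSS2 is part of the counts for the fetal slopes too, although its slopes are described only. Summing the CF d100 gallbladder columns as 1 unit kept hepsin past the threshold (adjusted p = 0.0464). PRSS8 in newborn liver missed with 1 unit per donor stem (0.0626). No paired analysis was possible, because replicate numbers only count the libraries within a group and the groups of a comparison share at most 1 donor number. Donor numbers shared by liver and gallbladder join tables that were scaled apart and not tested against each other. With 2 libraries per group, differences of members below about 1 CPM rest on few counts.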

Other observations

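For 4 donor numbers both a liver and a gallbladder library could be assigned. The CF d100 donor numbers also stand on both tissues, but which gallbladder column belongs to which is not known, so they are left out. TMPRSS2 was at 4.70 CPM in liver and 17.2 CPM in gallbladder for the CF d80 donor, and at 5.46 and 72.0 CPM for the CF d120 donor. It was at 1.04 and 41.4 CPM for the WT d120 donor and at 3.83 and 245 CPM for the newborn WT donor. ST14 in the newborn WT donor was at 0.403 CPM in liver and 234 CPM in gallbladder. Hepsin ran the other way in all 4 donors, for example 24.3 CPM in gallbladder and 278 CPM in liver of the CF d120 donor.

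Of the genes around TMPRSS2, 3 were tested, all within 2 genes of it in the sheep assembly ARS-UI_Ramb_v3.0. Their fetal liver log2 differences (CF against WT) were 0.02 ± 0.22 for MX2, -0.57 ± 0.20 for MX1 and 0.09 ± 0.16 for RIPK4, given as a description. MX1 and MX2 are interferon-induced antiviral genes.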
